A study of Saccharomyces cerevisiae with 12 samples.

Results

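Cryptic unstable transcripts (CUTs) are RNAs that RNA polymerase II makes from cryptic start sites, most often at the edges of nucleosome-free regions and away from or across protein-coding genes. In budding yeast (Saccharomyces cerevisiae) the Nrd1-Nab3-Sen1 complex ends their transcription early, the TRAMP complex adds a short poly(A) tail, and the nuclear exosome with its nuclease Rrp6 degrades them. They are therefore scarce in cells whose RNA surveillance works, and are usually mapped in cells that lack Rrp6. The CUTs described here are the annotated rows of the count table whose names start with CUT or newCUT and that overlap no protein-coding row on their own strand. This held for 748 of 844 such rows, out of 12768 rows in all, and 2 of the 748 are named newCUT.

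The study set cells with a temperature-sensitive (ts) allele of a proteasome gene beside WT cells, with 4 libraries of polyadenylated RNA in each of 3 groups, called biological replicates by the series. The names of WT replicates 3 and 4 give the strain as By4741. The pup2-ts cells carry pup2-ts::URA3, an allele of the gene for an alpha subunit of the proteasome core. The rpn5-ts cells carry rpn5-ts::URA3, an allele of the gene for a subunit of the lid. Both mutants also carry lys2Δ0 and can1Δ::LEU2-MFA1pr::His3, which WT does not, and by their labels all 3 groups are MATa his3Δ1 leu2Δ0 met15Δ0 ura3Δ0 (the gene met15 is MET17 in the table). By the labels a mutant therefore differs from WT at these marker loci as well as at the proteasome gene, and the labels do not say whether a strain is 1 clone. Cells grew in YPD, a rich medium, to an optical density near 0.5, untreated, and the labels give no temperature and no age of culture.

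Protein-coding rows held 18627675 to 60966881 counts per library, and CUTs 8283 to 31846 counts. Replicates 3 and 4 of each group have the word DNAse in their names and replicates 1 and 2 do not, and libraries of a group differed more between these forms of name than within them, so values within each form are given. Levels are given as CPM, counts per 1000000 protein-coding counts after TMM scaling on those rows. The library labelled rpn5-ts replicate 1 held 212 CPM of LYS2 and 248 CPM of MET17, against at most 0.18 and 0.09 CPM in the other rpn5-ts libraries, which goes against its label. MET17 also stood at 195 to 586 CPM in all pup2-ts libraries, against at most 0.0923 in WT, which goes against the met15 deletion in the pup2-ts label, so pup2-ts differs from WT at this locus as well. No CUT lies within 2 kb of URA3, CAN1, LYS2, MET17 or HIS3. CUT633 lies that near PUP2 and CUT478 that near RPN5, and neither passed the test in a mutant. LEU2, which the mutants' can1 label names, has no row, and MFA1, also named there, was not among the loci checked. CUT534, which diverges from MFA1, was called lower in pup2-ts (log2 fold change -1.55, edgeR adjusted p = 0.0038) and rpn5-ts (-1.34, adjusted p = 0.012), as was MFA1.

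The CUTs are short and lie mostly across from genes. Their median length was 409 bases, with quartiles of 289 and 593. Of the 748, 542 overlapped a protein-coding row on the other strand, and 314 of these also started within 500 bases of another gene that runs away from them. A further 110 only diverged from such a gene, 18 started within 300 bases past the end of a gene on their strand (tandem), and 78 did none of these. The table also lists other non-coding units on the same bases. Of the CUTs, 644 shared bases with such a row on their strand, 473 were wholly covered and 104 shared none. All 469 CUTs that lie whole inside 1 other row had counts at or below that row's in all 12 libraries, so reads in shared bases were counted for both rows.

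The 4 CUTs that many results turn on are shown by the first 200 bases from the annotated start, 5′ to 3′ on the transcribed strand, from the R64 assembly (sacCer3). CUT402 and CUT701 fell in both mutants, CUT014 rose in both and CUT376 rose in pup2-ts. Capitals mark TCTT, the letters that Nab3 prefers, and GTAA or GTAG, those that Nrd1 prefers, written as DNA. CUT402 starts at chrXVI:76705-76904 on the plus strand across from GYP5, CUT701 at chrXI:24718-24917 on the minus strand between JEN1 and URA1, CUT014 at chrII:324512-324711 on the plus strand across from TCM62, and CUT376 at chrXV:435778-435977 on the plus strand across from ASE1.
CUT402: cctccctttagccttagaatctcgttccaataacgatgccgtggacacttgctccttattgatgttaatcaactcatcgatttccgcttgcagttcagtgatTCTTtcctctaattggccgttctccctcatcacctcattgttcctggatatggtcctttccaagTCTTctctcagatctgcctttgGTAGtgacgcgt
CUT701: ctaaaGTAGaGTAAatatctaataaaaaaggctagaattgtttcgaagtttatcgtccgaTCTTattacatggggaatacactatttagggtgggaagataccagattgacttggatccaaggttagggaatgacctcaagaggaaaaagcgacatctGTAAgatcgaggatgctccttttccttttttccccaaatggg
CUT014: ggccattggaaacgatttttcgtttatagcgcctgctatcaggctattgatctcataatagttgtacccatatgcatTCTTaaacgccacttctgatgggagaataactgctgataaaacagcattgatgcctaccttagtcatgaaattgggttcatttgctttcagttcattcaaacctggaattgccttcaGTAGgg
CUT376: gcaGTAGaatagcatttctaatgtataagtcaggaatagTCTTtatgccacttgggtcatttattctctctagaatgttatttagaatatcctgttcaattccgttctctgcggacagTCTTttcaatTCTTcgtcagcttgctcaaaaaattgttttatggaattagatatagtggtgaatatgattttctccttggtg
Of these stretches, CUT376 held 3 TCTT, CUT402 held 2, and CUT701 and CUT014 held 1 each. On the other strand CUT701 held 3 and each of the rest 0.

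Along all 748 CUTs the Nab3 letters lay mainly on the transcribed strand. In the first 300 bases TCTT occurred 13.1 times per kb on that strand and 5.32 times per kb on the other strand, and 93.7% of CUTs held it on the transcribed strand. Protein-coding rows stood the other way round, with 5.33 per kb on the transcribed strand and 11.3 on the other, and 75.2% held it on the transcribed strand. An RNA across from a coding sequence reads that other strand, so CUTs were also split by position. The 542 CUTs opposite a gene had 13.4 per kb and 5.05 on the other strand, and the 206 CUTs that overlap no gene on either strand had 12.5 and 6.02. The density was lowest in the first 50 bases of CUTs not opposite a gene, at 7.77 per kb, and stood between 12.4 and 13.6 in the next 5 bins of 50 bases. GTAA had 5.66 matches per kb on the transcribed strand of CUTs and 4.43 on the other, and GTAG 4.01 and 2.42; 80.3% and 63.9% of CUTs held them, against 66.3% and 47.1% of protein-coding rows. Rows named SUT with no gene on their strand (stable unannotated transcripts) had 7.09 TCTT per kb and 7.71 on the other strand. Such rows named NUT (Nrd1-unterminated transcripts) had 11.0 and 6.15. Rows annotated as antisense units had 11.6, with 5.11 on the other strand, and 92.6% of them held it. The difference between strands was thus not particular to CUTs, as NUT rows and antisense units had it too, while SUT rows did not. A match is only a run of letters and does not show that a protein binds there.

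**Figure D1:**
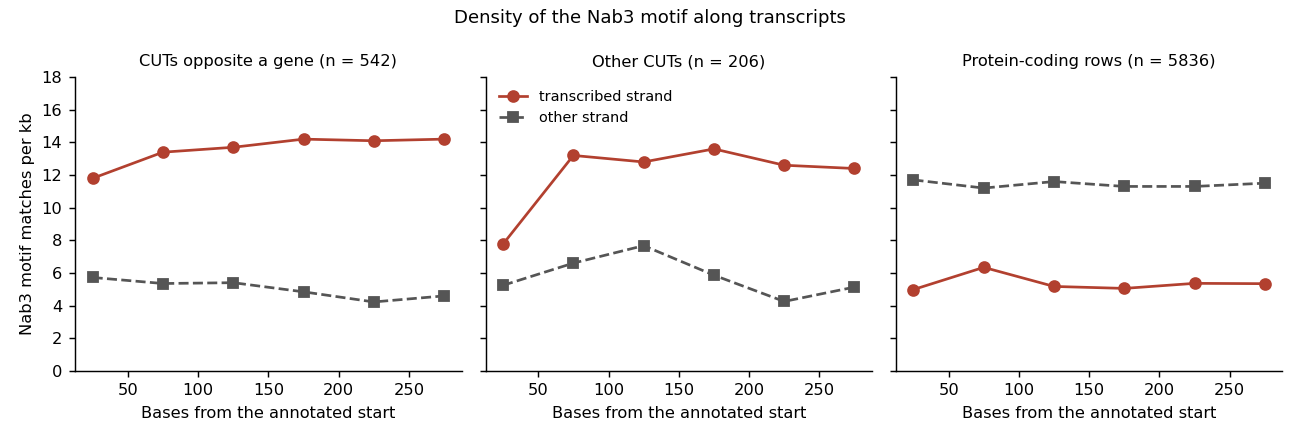
Matches to TCTT per kb (y axis) in bins of 50 bases from the annotated start (x axis, bases) on the transcribed strand (circles) and the other strand (squares), for the 542 CUTs opposite a gene, the 206 others and 5836 protein-coding rows. In both sets of CUTs the transcribed strand lies above the other strand in every bin, and in protein-coding rows below it.

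CUTs gave little signal in these cells. The median CUT had a mean of 9.58 counts per library, 358 CUTs had 10 or more and 109 fewer than 3. Per length, the median CUT stood at 0.81 RPKM (these CPM per 1000 bases of the row), against 41.0 RPKM for the median protein-coding row. The 10 CUTs with most counts held 18.1% of all CUT counts. Where a CUT lies across from a gene in the top 10% by RPKM, its density was a median of 0.368% of the gene's (24 pairs, 0.031% to 3.63%). If reads were counted on the wrong strand at 1 rate for all genes, that rate was at most the lowest of these, 0.031%. Of 318 opposite pairs, 13 had a CUT under 10 times that share of its gene; how the wrong strand varied between genes was not tested.

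The densest CUTs were mostly short units just past the end of a gene. The 6 highest by mean RPKM over 12 libraries were CUT404 (19.5), CUT889 (19.2), CUT852 (14.8), CUT561 (14.7), CUT091 (13.2) and CUT292 (12.6). The order moved with the libraries: without WT replicate 1, CUT404 stood at 12.5 RPKM, the fourth, and CUT889 was the first at 19.4. In replicates 3 and 4 CUT561 was the first, at 22.9 RPKM, against 6.48 in replicates 1 and 2. All but CUT561 are tandem units, of 121 to 489 bases, that start 7 to 118 bases past the end of the row before them. CUT404 lies between YAR1 and SUI3, which encodes a subunit of translation factor eIF2, and CUT091 follows RPL12B, which encodes a ribosomal protein. CUT889 averaged 2.54 ± 0.756 CPM in pup2-ts, 2.42 ± 0.419 in rpn5-ts and 2.49 ± 0.544 in WT (SD, n = 4 each), and CUT852 averaged 1.75 ± 0.216, 1.88 ± 0.352 and 1.73 ± 0.462. These groups overlapped, and neither CUT passed the test in a mutant.

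CUTs as a class stood lower in both mutants than in WT. Their summed counts came to 0.0465%, 0.0519%, 0.0323% and 0.0362% of protein-coding counts in pup2-ts replicates 1 to 4. In rpn5-ts replicates 1 to 4 they came to 0.0479%, 0.0604%, 0.0423% and 0.0438%, and in WT to 0.103%, 0.0891%, 0.0482% and 0.0522%. Within each form of name every mutant library stood below both WT libraries, but WT replicates 3 and 4 overlapped the mutants' replicates 1 and 2. The means were 0.0417 ± 0.00904% in pup2-ts, 0.0486 ± 0.00821% in rpn5-ts and 0.0731 ± 0.027% in WT (SD, n = 4 each).

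On the scaled CPM the summed signal was 0.600 of WT in pup2-ts and 0.669 of WT in rpn5-ts, or 0.664 when rpn5-ts replicate 1 was left out. In replicates 1 and 2 the ratios were 0.561 for pup2-ts and 0.586 for rpn5-ts, and in replicates 3 and 4 they were 0.662 and 0.800. The ratio was similar at every level of signal in pup2-ts, and in rpn5-ts it was higher in CUTs with fewer counts. For pup2-ts it was 0.602 in CUTs with a mean of 10 or more counts, 0.587 at 3 to 10 and 0.613 under 3, and for rpn5-ts 0.663, 0.710 and 0.745. The 104 CUTs that share no base with another row had ratios of 0.592 in pup2-ts and 0.588 in rpn5-ts. In RNA of whole cultures, fewer cells that make a CUT and less of it per cell cannot be told apart, and faster decay cannot be told apart from less synthesis.

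**Figure D2:**
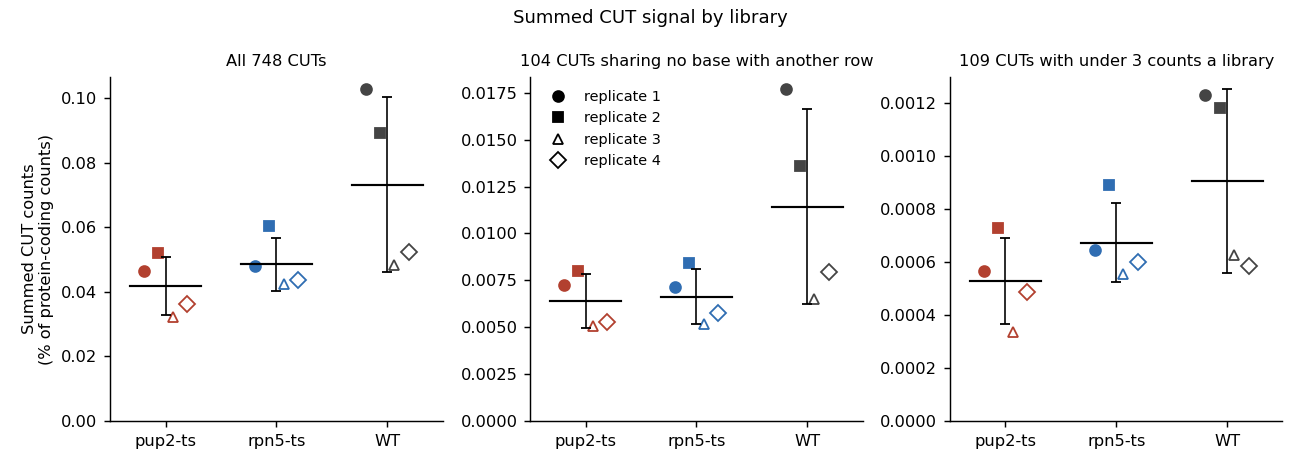
Summed CUT counts as a percentage of protein-coding counts (y axis) in each library of the 3 groups, for all 748 CUTs, for the 104 that share no base with another row and for the 109 with a mean under 3 counts; points are libraries (filled for replicates 1 and 2, open for 3 and 4), lines the mean and bars the SD of 4. In the first panel pup2-ts lies between 0.0323% and 0.0519%, rpn5-ts between 0.0423% and 0.0604% and WT between 0.0482% and 0.103%.

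The test asked which single CUTs differed between a mutant and WT. A filter on low counts (about 10 counts in 4 libraries, or 0.368 CPM) left 394 of 748 CUTs, and 1 of them passed it through the WT libraries alone and had to differ. In pup2-ts, 109 of the 394 CUTs were called by edgeR at an adjusted p under 0.05, 7 higher and 102 lower, where 20.7% of all 11733 rows tested were called, 6.76% higher and 14.0% lower. The lower calls were 25.9% of tested CUTs and the higher ones 1.78%. The median log2 fold change of tested CUTs was -0.79, against -0.16 over all rows tested and -0.021 over protein-coding rows. Without any filter, 131 of all 748 were called, 7 higher and 124 lower (19.2%, 6.11% and 13.1% of all rows), and the median stayed at -0.79. Mean CPM was lower in pup2-ts than in WT for 649 of all 748 CUTs, or 86.8%, against 53.1% of protein-coding rows. The 4 pup2-ts libraries lay wholly below the 4 WT libraries for 108 tested CUTs, or 27.4%, and wholly above for 5, or 1.27%, where 16.4% and 8.48% of all rows did so.

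In rpn5-ts, 50 of the 394 CUTs were called, 4 higher and 46 lower, where 13.1% of all rows were called, 5.91% higher and 7.17% lower. The share of CUTs called in either direction, 12.7%, was thus near that of all rows, while lower calls made up 11.7% of tested CUTs. The median log2 fold change of tested CUTs was -0.64, against -0.10 over all rows and -0.02 over protein-coding rows. Without the library labelled rpn5-ts replicate 1 the count was 52, 5 higher and 47 lower (14.8%, 7.58% and 7.18% of all rows), and in pup2-ts, which shares the fit, 112 (20.8%). Mean CPM was lower in rpn5-ts than in WT for 594 of 748 CUTs, or 79.4%, against 52.5% of protein-coding rows. The rpn5-ts libraries lay wholly below WT for 70 tested CUTs, or 17.8%, and wholly above for 6, or 1.52%, where 11.9% and 8.21% of all rows did so. Both comparisons use the same 4 WT libraries, so their counts are not independent of each other.

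The counts of calls depended on how the form of name was treated. With the replicate number as a block, 199 CUTs were called in pup2-ts (8 higher and 191 lower, where 40.6%, 13.0% and 27.5% of all rows were called) and 137 in rpn5-ts (7 higher and 130 lower, where 34.9%, 13.8% and 21.1% were called). Leaving out rpn5-ts replicate 1 under the block gave 211 in pup2-ts (43.2% of all rows) and 101 in rpn5-ts (32.9%). For folds beyond 1.5 the counts were 29 in pup2-ts (4.86%) and 6 in rpn5-ts (1.96%), and DESeq2 called 95 in rpn5-ts (20.2%). Within a form of name other numbers of CUTs passed the filter. In rpn5-ts 107 of 455, or 23.5%, were called in replicates 1 and 2 (17.4% of all rows), and 87 of 306, or 28.4%, in replicates 3 and 4 (49.2% of all rows). In replicates 1 and 2 alone the medians of tested CUTs were -0.93 in pup2-ts and -0.80 in rpn5-ts, and in replicates 3 and 4 alone -0.69 and -0.37. Left-out libraries moved the counts by more than 1.5 times. In pup2-ts the count was 57 without pup2-ts replicate 3 (12.8% of all rows called), 60 without pup2-ts replicate 4 (12.6%) and 60 without WT replicate 2 (13.9%). These were 14.1%, 13.9% and 15.9% of tested CUTs. In rpn5-ts it was 22 without rpn5-ts replicate 3 (7.11% of all rows), 32 without rpn5-ts replicate 2 (8.53%), 32 without rpn5-ts replicate 4 (7.57%) and 25 without WT replicate 2 (8.68%). These were 5.12%, 7.53%, 7.46% and 6.61% of tested CUTs. Calls thus became fewer among all rows as well as among CUTs.

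By median over all libraries, other non-coding classes also stood lower in the mutants. Among rows with no gene on their strand, the median log2 fold change in pup2-ts was -0.59 for NUT rows, -0.50 for rows annotated as antisense units, -0.40 for SUT rows and -0.35 for rows named SRT. In rpn5-ts the medians were -0.33, -0.24, -0.25 and -0.07 in the same order of classes. The forms of name differed here. In that order the summed CPM in rpn5-ts was 0.701, 0.764, 0.752 and 0.818 of WT in replicates 1 and 2. In replicates 3 and 4 it was 0.967, 0.975, 0.951 and 1.15, so SRT rows stood above WT there. For pup2-ts the ratios were 0.668, 0.736, 0.742 and 0.772 in replicates 1 and 2, and 0.778, 0.833, 0.822 and 0.988 in replicates 3 and 4. CUTs had the lowest median in both comparisons, but most of them share bases and reads with rows of these classes, and no test was made between classes. The 104 CUTs that share no base with another row had medians of -0.78 in pup2-ts and -0.81 in rpn5-ts over the 64 tested.

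**Figure D3:**
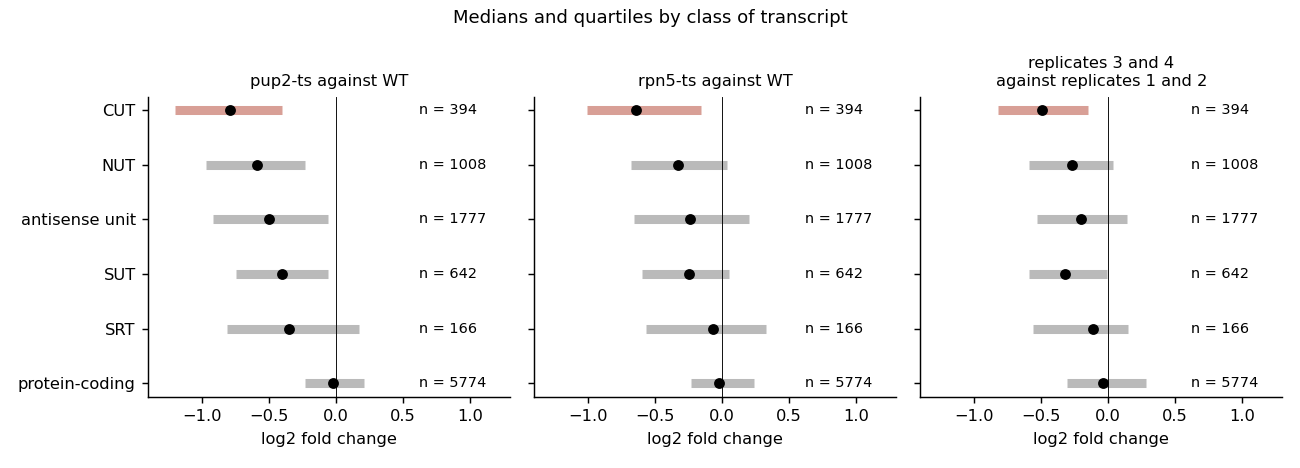
Median (point) and quartiles (bar) of the log2 fold change (x axis) for tested rows of each class, for pup2-ts against WT, rpn5-ts against WT, and replicates 3 and 4 against replicates 1 and 2. The CUT medians of -0.79, -0.64 and -0.49 are the lowest of the 6 classes in each panel, and the protein-coding medians lie between -0.04 and -0.02.

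By median, CUTs stood lower whatever their place. Median log2 fold changes in pup2-ts were -0.78 for CUTs opposite a gene (278 tested), -0.81 for divergent ones (56), -0.82 for tandem ones (12) and -0.91 for the rest (48). In rpn5-ts they were -0.58, -0.59, -1.08 and -0.73 in the same order of places. Calls were less even. In pup2-ts 77 opposite CUTs, 10 divergent ones and 10 of the rest were called lower, and 6 opposite and 1 divergent higher. In rpn5-ts 35, 1 and 5 were called lower, and 4 opposite ones higher. The 1 of 56 divergent CUTs lower in rpn5-ts lay under the share of all rows, 7.17%. Of the 12 tandem CUTs tested, 5 were called lower in pup2-ts and 5 in rpn5-ts, and none higher by edgeR in either, where 14.0% and 7.17% of all rows were called lower. They included CUT091, past RPL12B, and CUT554 and CUT485, past the ribosomal protein genes RPL34A and RPS29B.

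The CUTs named against WT were chosen as called, with the groups not overlapping in the comparison that named them, so that separation is part of the choice and supports nothing further. Of the CUTs that fell in pup2-ts, CUT402 gave the most counts among those named. It is 2865 bases long and runs across from GYP5, a GTPase-activating protein of membrane traffic, and reaches GAL4, the activator of galactose genes. All of its bases are also annotated as SUT393 and other rows, so it may hold reads of a stable transcript. CUT402 stood at 6.67, 6.40, 3.20 and 3.71 CPM in pup2-ts replicates 1 to 4, at 7.00, 9.61, 8.10 and 8.81 in rpn5-ts and at 23.3, 23.6, 21.9 and 19.0 in WT. Both mutants lay far below every WT library. The log2 fold change was -2.13 ± 0.23 in pup2-ts (adjusted p = 0.0001) and -1.39 ± 0.23 in rpn5-ts (adjusted p = 0.0023). GYP5 averaged 74.6 ± 29.7 CPM in pup2-ts, 70.6 ± 23.0 in rpn5-ts and 39.5 ± 13.4 in WT, with adjusted p = 0.065 and 0.11, and with the block 1.1e-05 and 2.5e-05.

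CUT701 lies across from the end of JEN1, a transporter of lactate and pyruvate, and starts 256 bases from URA1, an enzyme of pyrimidine synthesis that runs the other way. It stood at 1.17, 1.05, 0.765 and 1.02 CPM in pup2-ts, at 0.956, 1.55, 1.08 and 1.43 in rpn5-ts and at 3.49, 4.05, 3.74 and 4.54 in WT. No library of either mutant reached the WT range. The log2 fold change was -1.98 ± 0.21 in pup2-ts (adjusted p = 8.3e-05) and -1.67 ± 0.21 in rpn5-ts (adjusted p = 0.00042). URA1 fell too, to 252 ± 83.3 CPM in pup2-ts and 244 ± 83.5 in rpn5-ts, against 2310 ± 396 in WT (SD, n = 4 each). URA3, an enzyme of the same pathway, is absent in WT and present in both mutants by their labels, so the strain background and the proteasome allele cannot be told apart at this locus.

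CUT465 is a tandem CUT of 297 bases that starts 10 bases past SRD1 and shares no base with another row. It stood at 0.378, 0.273, 0.313 and 0.325 CPM in pup2-ts, at 0.0925, 0.424, 0.540 and 0.637 in rpn5-ts and at 1.51, 2.46, 1.29 and 1.52 in WT. Replicate 1 was the lowest of the rpn5-ts libraries. Its log2 fold change was -2.38 ± 0.41 in pup2-ts (adjusted p = 0.002) and -2.06 ± 0.41 in rpn5-ts (adjusted p = 0.0064). SRD1 itself fell in pup2-ts, to 13.3 ± 1.35 CPM against 33.4 ± 5.80 in WT, and averaged 19.2 ± 8.34 in rpn5-ts (adjusted p = 0.066, and 0.021 with the block).

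CUT435 lies in the arsenic resistance cluster, across from the arsenate reductase gene ARR2 and just before ARR3, the arsenite exporter. It stood at 0.447, 0.507, 0.278 and 0.278 CPM in pup2-ts, at 0.463, 0.848, 0.270 and 0.477 in rpn5-ts and at 2.21, 2.53, 1.01 and 1.10 in WT. WT replicates 3 and 4 were lower than 1 and 2 but above all mutant libraries. The log2 fold change was -2.16 ± 0.40 in pup2-ts (adjusted p = 0.0032) and -1.74 ± 0.40 in rpn5-ts (adjusted p = 0.014). ARR3, which starts 174 bases after the end of CUT435 on its strand, also fell in pup2-ts, by 1.56 on the log2 scale (adjusted p = 0.01), and was not called in rpn5-ts (-0.60).

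CUT012, across from PDX3, an enzyme of vitamin B6 metabolism, had the largest log2 fold change among the named falls in pup2-ts, -2.43 ± 0.51 (adjusted p = 0.006). It stood at 0.378, 0.195, 0.174 and 0.139 CPM in pup2-ts and at 1.79, 2.08, 0.507 and 0.567 in WT. In rpn5-ts it held 0.637 to 0.848 CPM, above WT replicates 3 and 4, and was not called. CUT598, CUT233 and CUT133 fell in pup2-ts by 1.91 to 2.03 on the log2 scale, with levels of 0.0695 to 0.585 CPM in pup2-ts and 0.415 to 2.25 CPM in WT, and CUT598 starts 248 bases from MPC1, a subunit of the mitochondrial pyruvate carrier. CUT233 missed the threshold when WT replicate 2 or pup2-ts replicate 1, 3 or 4 was left out (adjusted p of 0.057 to 0.068). In rpn5-ts these 3 missed the threshold at adjusted p = 0.057, 0.052 and 0.065, and passed with the block at 0.036, 0.0013 and 0.016.

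A further 5 CUTs were named for their fall in rpn5-ts, and 3 of them also fell in pup2-ts. CUT268, across from the drug resistance regulator PDR8, stood at 0.463, 0.377, 0.315 and 0.212 CPM in rpn5-ts and at 2.38, 1.70, 0.692 and 1.15 in WT (log2 fold change -2.07 ± 0.48, adjusted p = 0.015). It also fell in pup2-ts (-1.48, adjusted p = 0.038). CUT250 lies across from UBR2, a ubiquitin ligase known to act on the proteasome regulator Rpn4. It averaged 0.306 ± 0.103 CPM in rpn5-ts and 1.05 ± 0.268 in WT (-1.74 ± 0.42, adjusted p = 0.018), and UBR2 rose in rpn5-ts (0.85 ± 0.18, adjusted p = 0.0084). In pup2-ts CUT250 fell as well, to 0.307 ± 0.201 CPM (-1.74, adjusted p = 0.011), and UBR2 rose (0.95, adjusted p = 0.0031).

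CUT278 lies across from RIF2, a telomere length regulator, and starts 338 bases from SST2, a brake on pheromone signalling. It fell by 1.91 ± 0.51 on the log2 scale in rpn5-ts (adjusted p = 0.027), and SST2 fell by 0.94 ± 0.24 (adjusted p = 0.023). CUT096, across from YHP1, and CUT022, across from ALG14, fell by 1.77 ± 0.48 and 1.70 ± 0.35. CUT022 fell in pup2-ts too (-1.64, adjusted p = 0.0053), while CUT278 (-1.27) and CUT096 (-1.03) missed the threshold there (adjusted p = 0.077 and 0.13) and passed with the block (0.0036 and 0.017). CUT096 starts 26 bases past RPS18A, whose row held over 1000 CPM in each group's mean, and WT replicate 1 was its highest library at 4.02 CPM. In rpn5-ts CUT250 missed the threshold without replicate 3 or 4, CUT278 without any 1 of 4 libraries and CUT096 without any 1 of 5.

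The few CUTs that rose lay across from or beside genes. CUT014 lies across from TCM62, a mitochondrial chaperone gene, and starts 418 bases from QDR3, a multidrug transporter gene. It stood at 1.44, 2.11, 1.22 and 1.44 CPM in pup2-ts, at 1.94, 1.13, 1.39 and 1.11 in rpn5-ts and at 0.391, 0.520, 0.554 and 0.301 in WT. Every mutant library lay above every WT library. The log2 fold change was 1.85 ± 0.29 in pup2-ts (adjusted p = 0.0011) and 1.71 ± 0.29 in rpn5-ts (adjusted p = 0.0029). TCM62 fell in both, by 0.46 ± 0.10 and 0.38 ± 0.10 on the log2 scale (adjusted p = 0.0078 and 0.027).

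CUT376, across from ASE1, a microtubule bundler of the spindle, was the most abundant of the named rises. It stood at 9.24, 11.7, 6.36 and 6.59 CPM in pup2-ts, at 7.34, 3.39, 2.65 and 4.30 in rpn5-ts and at 3.80, 3.67, 1.71 and 2.39 in WT. It rose in pup2-ts (1.55 ± 0.35, adjusted p = 0.009) and was not called in rpn5-ts, where replicates 2 and 3 lay within the WT range (0.62 ± 0.35, adjusted p = 0.26).

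CUT668, near DJP1, a peroxisomal import chaperone, averaged 0.597 ± 0.0898 CPM in pup2-ts, 0.560 ± 0.263 in rpn5-ts and 0.187 ± 0.0815 in WT, and rose in both (1.55 ± 0.39 and 1.45 ± 0.40, adjusted p = 0.016 and 0.032). CUT016 averaged 0.363 ± 0.0692 CPM in pup2-ts, 0.458 ± 0.0839 in rpn5-ts and 0.181 ± 0.0688 in WT, and starts 184 bases from RFS1, which rose as well (1.14 ± 0.27 in pup2-ts and 1.01 ± 0.27 in rpn5-ts). CUT368, before SIN3, and CUT746, near CHS5, rose in pup2-ts by 0.64 ± 0.19 and 0.56 ± 0.16. These calls were the least firm: CUT368 missed the threshold without any 1 of 6 libraries, CUT746 without any 1 of 5 and CUT668 in rpn5-ts without any 1 of 5.

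The remaining rises were noticed only after the values were seen. CUT370 rose in pup2-ts (1.84, adjusted p = 0.042) at a mean of 0.473 CPM against 0.138 CPM in WT. CUT281 runs across from the phosphate transporter gene PHO84 and rose in rpn5-ts, at a mean of 22.7 CPM against 9.43 CPM in WT (1.26, adjusted p = 0.046), and averaged 17.7 CPM in pup2-ts, where it was not called (adjusted p = 0.11).

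**Figure D4:**
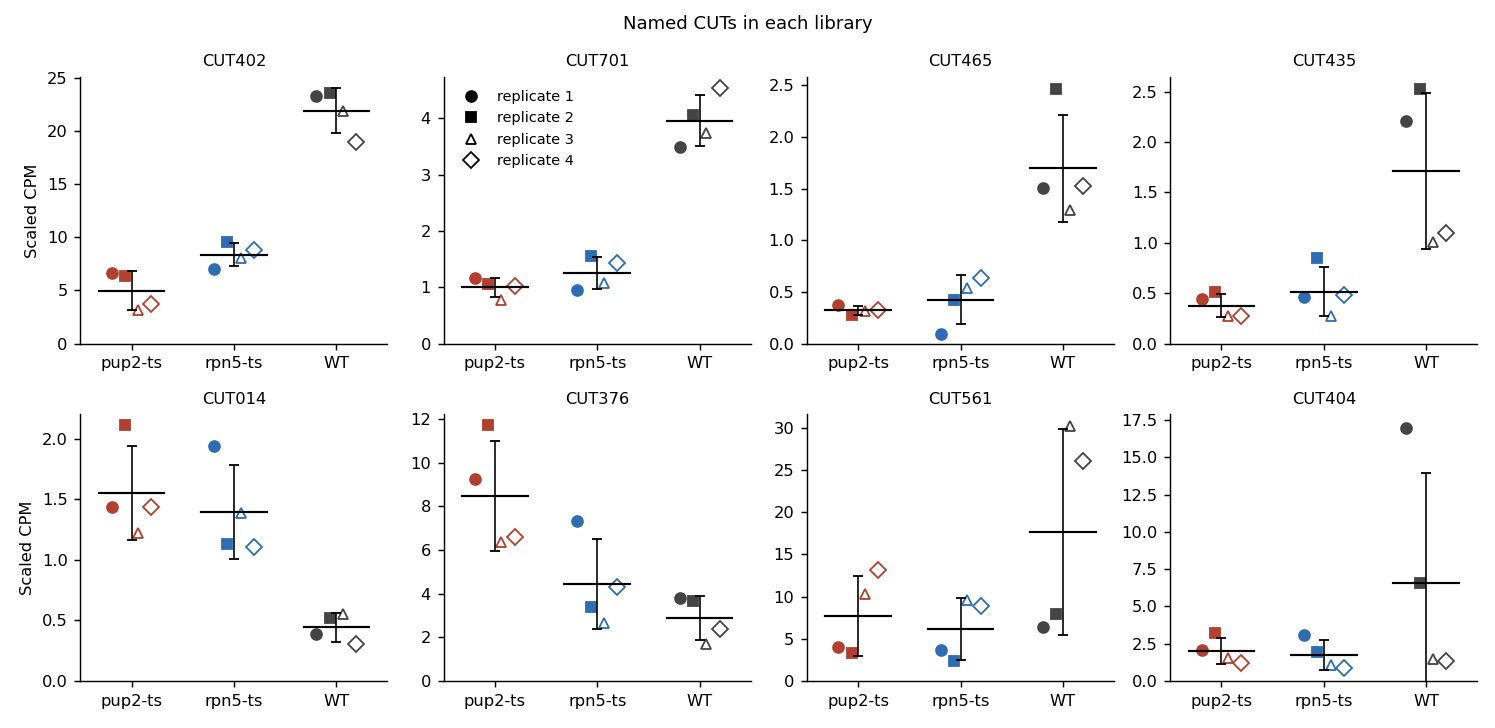
Scaled CPM (y axis) of 8 named CUTs in each library of pup2-ts, rpn5-ts and WT; points are libraries (filled for replicates 1 and 2, open for 3 and 4), lines the mean and bars the SD of 4, with the axis starting at 0, where the WT bar of CUT404 is cut. CUT402, CUT701, CUT465 and CUT435 lie lower in both mutants than in WT, CUT014 higher in both and CUT376 higher in pup2-ts, while CUT561 and CUT404 split by the form of name.

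The genes beside and across from CUTs mostly did not move with them. In 205 divergent pairs the median log2 fold change in pup2-ts was -0.78 for the CUT and -0.04 for the gene, and in rpn5-ts -0.48 and -0.07. Where the CUT of a divergent pair was called lower in pup2-ts (52 pairs), the gene was lower in 3, higher in 4 and not called in 45. In rpn5-ts (20 pairs) it was lower in 4, higher in 0 and not called in 16. Over all 5774 protein-coding rows tested, 561 were called higher and 432 lower in pup2-ts, and 458 higher and 284 lower in rpn5-ts. For 318 opposite pairs with the CUT lower in pup2-ts (86 pairs), the gene was lower in 9, higher in 8 and not called in 69, and in rpn5-ts (43 pairs) lower in 2, higher in 6 and not called in 35. Across pairs, Pearson's r of the fold changes was 0.16 in pup2-ts and 0.29 in rpn5-ts for divergent pairs, -0.03 in both for opposite pairs, and 0.35 and 0.29 for 52 pairs in which the gene ends within 300 bases before the CUT on its strand. These are descriptions across pairs that share libraries, not independent samples.

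**Figure D5:**
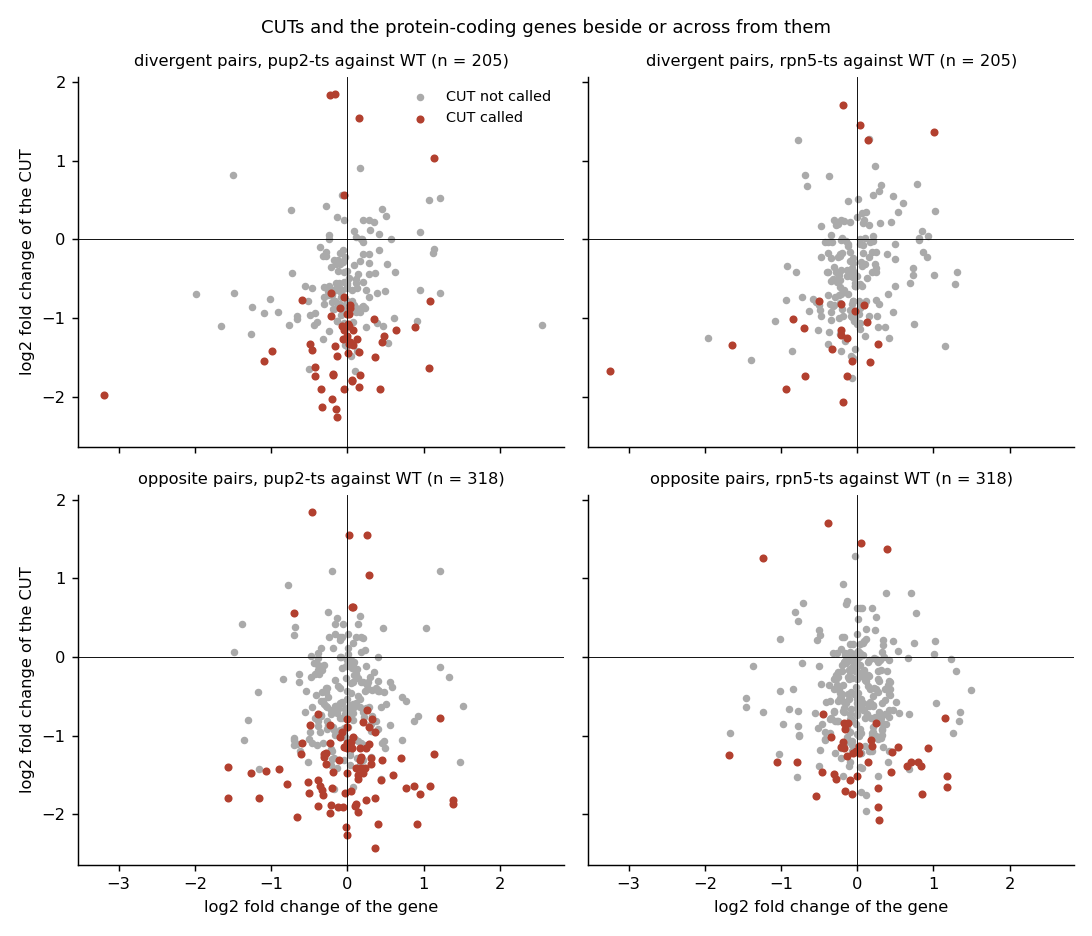
Log2 fold change of each tested CUT (y axis) against that of its divergent gene (upper panels, 205 pairs) or opposite gene (lower panels, 318 pairs; x axis) in pup2-ts and rpn5-ts against WT, with CUTs called by edgeR in red. Most red points lie below 0 and spread to both sides of 0 on the gene axis, and URA1 with CUT701 is the lowest gene, at -3.20 in pup2-ts and -3.24 in rpn5-ts.

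Few CUTs were told apart between the mutants, and only under some alternatives. In rpn5-ts against pup2-ts, with all 4 libraries a group and no block, edgeR called 0 of 394 CUTs, with 28 at an unadjusted p under 0.05, where 0.0341% of all rows were called, and DESeq2 called 1 (0.511% of all rows). The median log2 fold change was 0.20, against 0.06 over all rows. For CUT402, whose mean was 8.38 ± 1.11 CPM in rpn5-ts and 4.99 ± 1.79 in pup2-ts, the groups did not overlap, as was so for 16 CUTs that were higher in rpn5-ts and 2 that were lower (3.67% and 1.59% of all rows). When the block was used and the rpn5-ts library that goes against its label was dropped, 13 CUTs were called, 12 of them higher in rpn5-ts, where 5.67% of all rows were called and 4.21% higher. In replicates 3 and 4 alone 24 of 306 tested CUTs, or 7.84%, were called, 22 of them higher in rpn5-ts, where 26.1% of all rows were called.

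CUTs also differed between the forms of name, but a smaller share of them was called than of all rows. In replicates 3 and 4 against replicates 1 and 2, with group as a term, 163 of 394 CUTs were called, 14 higher and 149 lower. These were 41.4% of tested CUTs, 3.55% higher and 37.8% lower, where 51.4% of all rows were called, 19.2% higher and 32.2% lower. The median of tested CUTs was -0.49, against -0.13 over all rows. For folds beyond 1.5 the count was 34, or 8.63% of tested CUTs (7.43% of all rows). The effect of pup2-ts itself differed between the forms for 7 CUTs (6.66% of all rows), and for 3 with the block (5.07%) and 0 beyond a fold of 1.5 (0.528%) by edgeR. That of rpn5-ts differed for 1 CUT (2.07%), for 0 with the block (1.17%) and 0 beyond a fold of 1.5 (0.0938%), and for 4 by DESeq2 (4.84%). The extract protocol gives a DNAse treatment for all libraries, and whether the word in the names marks a further step was not tested. What sets the forms apart cannot be told from the labels.

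CUT567, a unit of 145 bases that meets the end of the small nucleolar RNA gene SNR52, fell most among the named CUTs. It held 0.243 and 0.139 CPM in replicates 3 and 4 of pup2-ts against 2.37 and 3.43 in replicates 1 and 2. The values were 0.0900 and 0.159 against 2.90 and 4.14 in rpn5-ts, and 0.415 and 0.319 against 1.79 and 3.05 in WT. The log2 difference was -3.56 ± 0.31 (adjusted p = 4.2e-07), and neither mutant differed from WT by the test. CUT404 held 1.48 and 1.35 CPM in WT replicates 3 and 4 against 17.0 and 6.55 in replicates 1 and 2, and WT replicate 1 was its highest library. In the mutants its adjusted p was 0.11 in each, and 0.057 in pup2-ts and 0.024 in rpn5-ts with the block. CUT561, across from the polyphosphate gene VTC1, went the other way, with 10.3 and 13.1 CPM against 4.06 and 3.32 in pup2-ts, 9.63 and 8.86 against 3.70 and 2.35 in rpn5-ts, and 30.2 and 26.1 against 6.34 and 7.97 in WT (1.75 ± 0.13, adjusted p = 1.4e-07). Within each form the mutants lay below WT, and the strain effect of CUT561 passed only with the block (adjusted p = 0.18 and 0.12 without it, 0.00045 in pup2-ts and 0.00014 in rpn5-ts with it).

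Genes that end or degrade CUTs, or hold cryptic promoters shut, were read in the same fit. Of 49 such genes, 3 were called in pup2-ts, all higher, and 0 in rpn5-ts by edgeR, where 20.7% and 13.1% of all rows were called. The 3 encode chromatin factors that act behind or on elongating polymerase. SPT16, a subunit of the histone chaperone FACT, averaged 457 CPM in pup2-ts and 318 in WT (0.52, adjusted p = 0.018), POB3, its partner, 231 and 186 (0.31, adjusted p = 0.023), and EAF3, a subunit of the Rpd3S deacetylase, 157 and 118 (0.41, adjusted p = 0.031). All 3 calls were lost when WT replicate 2 or pup2-ts replicate 3 or 4 was left out.

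None of the 13 exosome genes, 5 TRAMP genes or 7 genes of Nrd1-Nab3-Sen1 termination was called by edgeR in either mutant with all libraries and no block, and without rpn5-ts replicate 1 there was 1 exosome gene called lower in rpn5-ts. RRP6 averaged 160 CPM in pup2-ts, 138 in rpn5-ts and 171 in WT, with adjusted p = 0.50 and 0.051. NRD1, which encodes an RNA-binding subunit of the termination complex, held 136 and 137 CPM in replicates 3 and 4 of pup2-ts and 129 and 143 in those of rpn5-ts, against 119 and 121 in WT. In replicates 1 and 2 it held 59.0 and 62.8 CPM in pup2-ts and 71.5 and 63.7 in rpn5-ts, against 224 and 129 in WT, so its direction turned with the form. NAB3, its partner, averaged 193 CPM in pup2-ts, 185 in rpn5-ts and 147 in WT. It was higher in both mutants with the block (adjusted p = 0.0037 and 0.013), as was the TRAMP gene TRF5 in pup2-ts (adjusted p = 0.01). With the replicate block, 12 of the 49 genes were called in pup2-ts, 8 higher and 4 lower, and 18 in rpn5-ts, 6 higher and 12 lower, of which 7 were exosome genes, where 40.6% and 34.9% of all rows were called. Those 7 included RRP6 (adjusted p = 0.0068) and RRP42 (adjusted p = 0.00032). Between the forms of name 38 of the 49 were called, 13 higher and 25 lower, where 51.4% of all rows were called, with 11 of 13 exosome genes lower in replicates 3 and 4 and a median of -0.52. Transcript levels do not measure the activity of these proteins.

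The proteasome-associated control element (GGTGGCAAA, searched on both strands), the sequence read by the transcription factor Rpn4 before proteasome genes, lay within 300 bases before the start of 7 of 748 CUTs, or 0.936%, against 1.46% of protein-coding rows. CUT191 diverges from RPN2 and CUT619 from PRE9, both proteasome genes, and CUT702 from UBA1, the ubiquitin-activating enzyme. CUT320 diverges from NRD1 and CUT135 from NAB2, a poly(A)-binding protein. Of the 4 that passed the filter, CUT135 alone was called, lower in pup2-ts at 0.687, 0.663, 0.695 and 0.603 CPM against 1.65, 1.87, 1.52 and 1.22 in WT (log2 fold change -1.23, adjusted p = 0.026). CUT191 averaged 0.510 CPM in pup2-ts and 0.589 in rpn5-ts against 0.563 in WT, and CUT619 0.375 and 0.327 against 0.250, and neither was called.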

How the data were processed

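RNA-seq counts per annotated row were deposited by the authors as 1 raw count table of 12 libraries; per the submitters' processing notes the tools include STAR 2.5.2b and featureCounts of Subread 1.5.1, with sacCer3 as build. Per the labels' protocols, RNA was extracted with hot acid phenol, DNAse treated and made into libraries of polyadenylated RNA with KAPA mRNA HyperPrep. Whether the counting used strand is not given in the sources used here. The members, gene lists and tests were chosen with earlier results of these data known.

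The table's coordinates match the R64 assembly: 92.05% of 5585 matched protein-coding rows contain the R64 coding interval. The 92 spike-in rows held at most 4 counts per library and were left out. Library sizes and TMM factors came from the 5836 protein-coding rows. One edgeR 4.0.16 quasi-likelihood fit (R 4.3.3, limma 3.58.1) held all 3 groups and the 11733 rows left by filterByExpr with a minimum count of 10. Tests were two-sided, with Benjamini-Hochberg adjustment over all rows tested and a threshold of 0.05. A ± after a log2 fold change is a standard error from the test's F value. Interactions asked whether a mutant's effect differed between replicates 3 and 4 and replicates 1 and 2. Tests and procedures were checked on simulated counts. Values were tabulated with Python 3.11.15, pandas 2.3.3 and numpy 2.4.6 and drawn with matplotlib 3.10.9.

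Named CUTs were those called with at least 10 counts in 4 libraries and no overlap between groups, by size of fold change, up to 8 per direction against WT and up to 4 between forms of name, and the 6 densest. Alternatives were another scaling, filters, DESeq2 1.42.0, a fold of 1.5, left-out libraries and the replicate number as a block. Same-numbered libraries of different groups deviated together (correlations of 0.144 to 0.577 in 12 pairs, bound 0.1), but so did other numbers of the same form of name (0.344 to 0.56), and 6 of 12 libraries were closest to their own number, so number and form cannot be told apart; blocked values stand beside the results they change. Within each group no library was a copy of another (chi-square per degree of freedom of at least 7.21), and pairs across groups were not compared in this way. P-values measure the spread between these libraries.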

Additional observations from a re-analysis of the deposited data

Results flagged for a closer look

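The effect of pup2-ts differed between replicates 3 and 4 and replicates 1 and 2 for 7 of 394 tested CUTs by edgeR's test of the difference, where 6.66% of all rows were called. The difference is the log2 fold change in replicates 3 and 4 minus that in replicates 1 and 2. It was 2.92 for CUT443, across from BRN1, 2.6 for CUT814, across from NIS1, and 2.18 for CUT863, which lies across from HNT3 and past the end of RPT4, a proteasome ATPase gene. It was 1.3 for CUT672, divergent from CPS1, 1.25 for CUT292, past ANY1, and 1.16 for CUT091, past RPL12B. For CUT155, which ends just before ASN2, it was -1.58. For CUT091 the levels were 5.63 and 5.29 CPM in pup2-ts replicates 3 and 4 against 6.97 and 7.50 in WT, and 4.30 and 4.60 CPM in pup2-ts replicates 1 and 2 against 13.3 and 13.1 in WT. The 7 calls became 0 without WT replicate 3 or pup2-ts replicate 1, and 15 without WT replicate 2.

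The effect of rpn5-ts differed between the forms for CUT672 alone, by 1.49, where 2.07% of all rows were called, and this call was lost with the replicate block. One library stood apart from its group among the named CUTs. CUT292 held 1.65 CPM in pup2-ts replicate 1, against 2.13 to 2.22 in the other pup2-ts libraries. This was 1 of 96 groups looked at, and chance marks about 1 in 20.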

How the results depend on the processing

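Of 32 results for named CUTs, 23 stayed past the threshold under every alternative in this tally, which leaves out the fold of 1.5. Of 542 alternative values 504 kept their call and 38 missed the threshold in the same direction, and none reversed. All 24 results with a replicate block value passed with it. Beyond a fold of 1.5 only 1 CUT was called higher in pup2-ts, 1 in rpn5-ts and 3 between forms, and 5 lower in rpn5-ts. Some named results, most of the rises against WT among them, thus did not pass there. In pup2-ts against WT, 109 CUTs were called; the count was 199 with the replicate block, 211 with the block and without rpn5-ts replicate 1, 216 with form of name as a factor, 29 for folds beyond 1.5 and 57 to 132 over left-out libraries. In rpn5-ts against WT, 50 were called; the count was 137 with the block, 101 with the block and without rpn5-ts replicate 1, 150 with form as a factor, 95 by DESeq2, 32 with library sizes alone, 6 beyond a fold of 1.5, 107 in replicates 1 and 2, 87 in replicates 3 and 4, and 22 to 63 over left-out libraries. In rpn5-ts against pup2-ts it was 0, against 1 by DESeq2, 13 with the block and without rpn5-ts replicate 1, and 24 in replicates 3 and 4. Between forms 163 became 34 beyond a fold of 1.5, and no block could be fitted there because number and form are confounded. For the difference in pup2-ts effect 7 became 3 with the block, 0 beyond a fold of 1.5 and 0 to 15 over left-out libraries; for rpn5-ts 1 became 0 with the block, with scaling by all rows or beyond a fold of 1.5, 4 by DESeq2 and 0 to 18. CUTs that share no base with another row, 64 of them tested, gave 14, 7, 31, 2 and 0 calls. These were in pup2-ts, rpn5-ts, forms and the differences in effect of pup2-ts and rpn5-ts. In the same order 20.7%, 13.1%, 51.4%, 6.66% and 2.07% of all rows were called in either direction, and these counts stood near or below those shares. The 14, 7 and 31 calls were all lower, where 14.0%, 7.17% and 32.2% of all rows were called lower. Counted as lower calls, they stood above the shares of all rows. CUTs 300 bases or more from a gene, 271 of them tested, gave 1 and 0 calls in the differences. Medians moved in rpn5-ts against WT to -0.80 in replicates 1 and 2, -0.37 in replicates 3 and 4 and -0.81 in CUTs that share no base, where rpn5-ts against pup2-ts gave 0.05. Summed counts of those CUTs were 0.00639% of protein-coding counts in pup2-ts, 0.00662% in rpn5-ts and 0.0114% in WT, and of CUTs 300 bases or more from a gene 0.0257%, 0.0306% and 0.0447%. Of 49 surveillance genes 3 were called in pup2-ts, 12 with the block and 0 to 3 over left-out libraries, and in rpn5-ts 0, 18 with the block and 0 to 3. The causes of these moves were not tested. For form of name as a factor, library sizes alone and most left-out libraries the share over all rows is not given. Those counts alone thus say nothing particular to CUTs. Depth limits single CUTs: 354 of 748 were too low to test.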
